A study of Mus musculus with 2 samples.

Results

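Small proteins were taken as the annotated protein-coding transcripts with an open reading frame of 60 to 300 nucleotides (nt), which is 20 to 100 codons with the stop codon counted, and with both untranslated regions annotated. The rule used annotation alone and no measured value. It selected 1457 of 109463 transcripts, on 1035 of 45578 genes. Of these transcripts, 764 belonged to 516 genes with no coding model longer than 300 nt, called small-protein genes here. The other 693 were short models of 519 genes that also had a longer coding model. Their median coding sequence was 240 nt, in a median transcript of 676 nt, so that 33.0% of the median transcript was coding. The 33374 other complete coding transcripts, all longer, had a median coding sequence of 1281 nt.

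The footprints came from whole brains of mice at postnatal day 5. All animals were controls of the Taiwanese line on a congenic FVB background, with the genotype Smn+/-; SMN2tg/0: they were heterozygous for a disrupted Smn and carried human SMN2 as a transgene. The samples formed 1 group of 2 biological replicates, so no treatment or genotype was compared, and neither a mouse without the transgene nor an affected mouse was analysed here. How many brains went into a library is not given in the sources used here. The libraries held 1866831 footprints in replicate 1 and 5261878 in replicate 2, a ratio of 2.82.

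Small proteins include many constant parts of larger machines. The smallest subunits of the ribosome and of the respiratory chain, the small Tim chaperones that carry proteins across the space between the mitochondrial membranes, the gamma subunits of heterotrimeric G proteins, and the ubiquitin-like modifiers are all of this size, as are many secreted peptides. In ribosome profiling, nuclease digests the mRNA that ribosomes do not cover, and the protected fragments, called footprints, are sequenced. Here only mRNA on polysomes, that is mRNA carrying several ribosomes, was digested, and a short reading frame has room for few of them.

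The start of the mRNA is shown first for the small ribosomal proteins. Vertebrate ribosomal protein mRNAs characteristically begin with a run of pyrimidines, the terminal oligopyrimidine tract, through which their translation is adjusted to nutrients and growth signals. The windows below hold 15 bases before and 15 bases after the annotated start of transcription in RefSeq on GRCm38.p6, read 5′ to 3′ on the strand of the gene. Capitals mark a run of at least 6 C or T bases that touches the 5 bases on either side of the start.
Rpl38 (chr11:114668565-114668594, plus strand): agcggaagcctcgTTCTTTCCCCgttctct
Rps21 (chr2:180257364-180257393, plus strand): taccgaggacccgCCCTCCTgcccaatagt
Rps27 (chr3:90213634-90213663, minus strand): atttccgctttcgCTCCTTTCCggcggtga
Rps27l (chr9:66946071-66946100, plus strand): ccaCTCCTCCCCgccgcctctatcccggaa
Rps28 (chr17:33824548-33824577, minus strand): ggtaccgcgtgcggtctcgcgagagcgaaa
Rpl41 (chr10:128549154-128549183, minus strand): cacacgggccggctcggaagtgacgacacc
Rpl37 (chr15:5116598-5116627, plus strand): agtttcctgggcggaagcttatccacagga
The list of cytosolic ribosomal proteins held 12 genes with a small-protein transcript and does not cover every such gene. Of these 12, 11 matched a RefSeq start by symbol, and 6 of them (54.5%) held such a run. The 6 were Rpl38, Rps21, Rps27 and the paralogues Rps27l, Rps27rt and Rpl39l, so the share is not that of the main ribosomal proteins alone. Among all 27025 matched genes of the table the share was 23.0%, and among the 165 matched small-protein genes that averaged at least 10 counts it was 21.2%. Rps28, Rpl41, Rpl37, Rpl37a and Rpl39 had no run that touches those bases. The windows of Rpl37 and Rpl39 hold a run farther from the start, which was not counted. A gene with several RefSeq starts was counted if any of them held the run. A run on either side of the start was counted, and that of Rps27l lies wholly before the annotated start. The match is a description of letters and depends on where RefSeq places the start.

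Starts of genes that led the small proteins by footprints are set beside them, for comparison with the ribosomal set.
Cox6b1 (chr7:30626100-30626129, minus strand): ggaattccgCTTCCCgtctgacattggcgt
Romo1 (chr2:156144218-156144247, plus strand): gagcgCCCTCCgcctagcattcggagtgag
Tmsb4x (chrX:167209204-167209233, minus strand): cggactacgagtgacatcacctcatttgca
Nrgn (chr9:37552731-37552760, minus strand): attggcttcgaggccgcagggctcaggtta
Gng3 (chr19:8839232-8839261, minus strand): cagttggtatgcgccagaatcagcagctcc
Cox8a (chr19:7217602-7217631, minus strand): ttccgaaatacttccggctcgggcgtccgg
Cox6b1 and Romo1 held a run of 6, as did 2 of the 3 annotated starts of Tmsb10, while the windows of Tmsb4x, Nrgn, Gng3 and Cox8a held none. The runs of Cox6b1 and Romo1 lie wholly before the annotated start, outside the mRNA as annotated. On the list of respiratory chain and ATP synthase genes, 9 of 23 matched genes (39.1%) held a run. The highest share of any list was 3 of 5, for neuropeptides and secreted peptides. On the lists of ubiquitin-like proteins and of Sm and LSm ring proteins, none of 7 and none of 6 did.

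Small proteins took a small part of the footprints, but more than their part of the coding sequence. They held 36075 footprints in replicate 1, 1.93% of the library (exact 95% interval 1.91 to 1.95, by the Clopper-Pearson method). In replicate 2 they held 83418, 1.59% of the library (1.57 to 1.60). The mean was 1.76% ± 0.245 (SD, n = 2). The intervals did not overlap, with replicate 2 the lower. Intervals cover counting error only, since PCR copies are not independent molecules. Among complete coding transcripts alone, small proteins made up 4.18% of transcripts, 0.597% of the annotated coding nucleotides and 1.42% of the transcript nucleotides. They held 2.64% ± 0.299 of the footprints on complete coding transcripts. The small-protein genes held 69.3% ± 3.19 of the small-protein footprints, and the short models of longer genes held 30.7% ± 3.19. Fragments that a short model shares with the longer model of its gene cannot be told apart in counts per transcript.

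Many of the transcripts carried no footprint. Both libraries were at 0 for 344 of the 1457 transcripts (23.6%), against 14.7% of the longer coding transcripts. At least 10 footprints were present in both libraries for 527 transcripts, and 509 when replicate 2 was thinned to the depth of replicate 1. A mean count of at least 10 was reached by 652 transcripts, 345 of small-protein genes and 307 short models, and these are the tested transcripts below. A count of 0 allows a level of up to 1.61 CPM, the count scaled to the library total, in replicate 1 and 0.570 CPM in replicate 2.

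At the level of genes, 190 of the 516 small-protein genes (36.8%) had no footprint in either library. Whole families of barrier and secreted proteins lay among them, grouped here by the start of the gene symbol. None of the 17 secretoglobins, secreted proteins of airway and gland epithelia, had a footprint, and neither did the 7 genes of the late cornified envelope of skin or the 5 Kazal-type protease inhibitors. Of 29 beta-defensins, antimicrobial peptides of epithelia, 24 were at 0, and the highest was Defb11 with 2 and 6 footprints in replicates 1 and 2. Of the 7 alpha-defensins, 6 were at 0. In contrast, all 12 G protein gamma genes and all 11 listed ribosomal protein genes among the small-protein genes had footprints. Not every barrier or secreted family was mostly at 0. Of 8 CC chemokines 1 was at 0, of 4 CXC chemokines 0, and of 16 keratin-associated proteins 5. The CC chemokines had 5 and 12 footprints in all. Counts of multicopy families are uncertain, because how fragments with several matches were counted is not given in the sources used here.

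The footprints of the small proteins were concentrated in few transcripts. The 10 transcripts with the most footprints held 10.8% of the small-protein footprints in replicate 1 and 7.44% in replicate 2, and the 100 with the most held 52.5% and 43.6%. At the gene level, 32 small-protein genes had a mean of at least 100 CPM, and 221 averaged 10 or more counts.

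Among small-protein genes, the largest counts belonged to proteins of signalling, the cytoskeleton and growing neurites. Gng2 (ENSMUSG00000043004), a G protein gamma subunit of 72 codons, had 822 footprints in replicate 1 and 1841 in replicate 2 over its 6 transcripts, a level of 395 ± 64.0 CPM (SD, n = 2). Mllt11 (ENSMUSG00000053192), first described as a fusion partner in leukaemia and abundant in neurons, had 883 and 1615 footprints, or 390 ± 117 CPM. Nrep (ENSMUSG00000042834), a protein linked to neuronal regeneration, had 674 and 1497 footprints, or 323 ± 54.1 CPM. In each of the 3 genes the level was higher in replicate 1 and the 95% counting intervals of the replicates did not overlap.

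The thymosins, which bind actin monomers, lay among them by count. Tmsb10 (ENSMUSG00000079523) had 829 and 1400 footprints, which is 444 CPM in replicate 1 (414 to 475) and 266 CPM in replicate 2 (252 to 280). Tmsb4x (ENSMUSG00000049775) had 719 and 1367 footprints, which is 385 CPM (358 to 414) and 260 CPM (246 to 274). Neither pair of intervals overlapped, and replicate 1 was higher in both genes. Per kilobase of their longest small coding sequence, the mean level was 2630 CPM for Tmsb10, 2108 for Tmsb4x, 1829 for Gng2, 1559 for Nrep and 1428 for Mllt11.

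Dynll2, a light chain of the dynein and myosin V motors, had 437 and 1120 footprints, or 223 ± 15.02 CPM. Its intervals, 213 to 257 CPM in replicate 1 and 201 to 226 in replicate 2, overlapped. Pkia, an inhibitor of protein kinase A, also had overlapping intervals, with 304 and 790 footprints and a level of 156 ± 8.98 CPM. Nrgn (neurogranin), a postsynaptic calmodulin-binding protein, stood at the other end. It had 563 and 740 footprints, a level of 302 CPM in replicate 1 (277 to 328) and 141 CPM in replicate 2 (131 to 151).

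The 15 leading genes also included Rpl38, Gng3, Fxyd6, Uqcrq, Cox8a, Cox6b1 and Romo1, with means from 152 to 212 CPM. Rpl38 is a protein of the large ribosomal subunit, and Uqcrq, Cox8a and Cox6b1 are subunits of respiratory complexes III and IV. Fxyd6 modulates the sodium pump, and Romo1 is a protein of the inner mitochondrial membrane. All 15 genes were higher in replicate 1 in CPM, and the intervals overlapped for Dynll2, Rpl38, Uqcrq and Pkia alone. Some counts depend on the annotation: Tmsb10 had 1009 and 1714 footprints when its non-coding and incomplete transcripts were added.

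**Figure D1:**
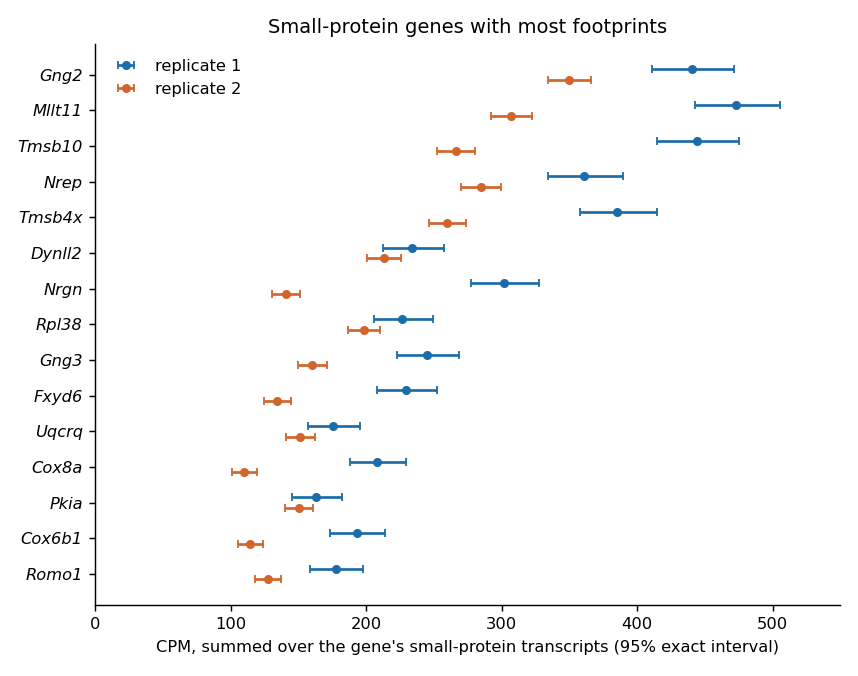
Levels of the 15 small-protein genes with the most footprints, in CPM on a linear axis summed over each gene's small-protein transcripts; points are replicates and bars are Clopper-Pearson 95% intervals of the count. Replicate 1 lies to the right of replicate 2 in every gene, with Nrgn at 302 and 141 CPM and Dynll2 at 234 and 213.

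Per nucleotide of coding sequence, footprints were densest on the shortest reading frames. Density was pooled as summed CPM over summed kilobases, with every transcript kept, including those at 0. It was 69.7 ± 6.62 CPM per kb for coding sequences of 60 to 120 nt (49 transcripts; SD, n = 2) and 70.6 ± 11.5 for 121 to 180 nt (190 transcripts). It was 63.7 ± 9.95 for 181 to 240 nt (492 transcripts) and 42.5 ± 5.19 for 241 to 300 nt (726 transcripts). The first 3 of these classes differed by less than the spread between replicates.

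Beyond the limit of 300 nt the pooled density was at first close to that of the class below it, and then fell. It was 41.4 ± 4.63 CPM per kb at 301 to 450 nt and 28.9 ± 1.99 at 451 to 600 nt. It was 5.63 ± 0.235 for coding sequences above 3000 nt. Around the limit itself, with every transcript kept, the median density of the 165 transcripts of 291 to 300 nt was 4.32 ± 1.06 CPM per kb, and that of the 210 transcripts of 303 to 312 nt was 3.61 ± 1.42. These medians differed by less than the spread between replicates, but other summaries did not. Among those that averaged 10 or more counts, the medians were 46.3 ± 2.33 inside the limit and 31.3 ± 2.23 outside it. The pooled densities, with every transcript kept, went the other way, at 33.0 ± 3.06 inside and 44.4 ± 8.72 outside.

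The counts belong to whole transcripts, and small reading frames sit in transcripts that are mostly untranslated. Divided by transcript length, the pooled density was 9.57 ± 0.908 CPM per kb at 60 to 120 nt, 13.2 ± 2.16 at 121 to 180 nt, 13.3 ± 2.08 at 181 to 240 nt and 11.04 ± 1.35 at 241 to 300 nt. At 301 to 450 nt it was 12.3 ± 1.38, and above 3000 nt it was 4.20 ± 0.176. On this scale none of the small-protein classes exceeded the class of 301 to 450 nt by more than the spread between replicates.

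**Figure D2:**
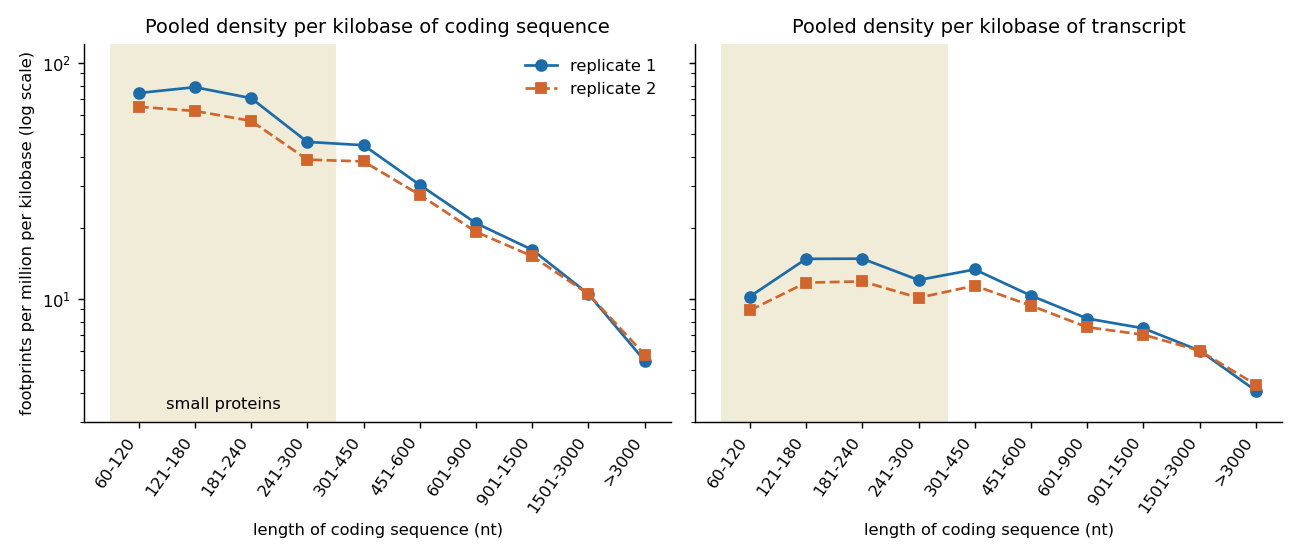
Pooled footprint density against the length of the coding sequence, in CPM per kilobase on a log axis, per kilobase of coding sequence on the left and of transcript on the right; lines are replicates and the shaded classes are the small proteins. Density per coding kilobase falls from about 70.6 at 121 to 180 nt to 5.63 above 3000 nt, while density per transcript kilobase peaks at 13.3.

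The size of the difference from longer coding transcripts depended on which transcripts were counted. At that minimum of 10, the median density per coding kilobase was 67.0 ± 1.40 CPM for the 652 small-protein transcripts and 10.1 ± 1.15 for 21182 longer ones. The fold between these medians was 7.08 in replicate 1 and 6.21 in replicate 2, a mean of 6.65 ± 0.617 (SD, n = 2). That minimum is itself a bar on density: 10 counts are 0.0417 footprints per nt on the median small coding sequence and 0.00781 on the median longer one. With no minimum the fold of medians was 1.87, and 4.51 for pooled densities. For genes, with all transcripts summed and no minimum, the fold between the 516 small-protein genes and the longer coding genes turned to 0.301. The pooled density of the same genes did not turn, at 132 and 104 CPM per kb in replicates 1 and 2 for small-protein genes and 28.5 and 28.6 for longer ones. Per kilobase of transcript, the fold was 3.34 ± 0.363 at the minimum of 10 and 0.939 with none, so the direction also depends on the genes at or near 0. Transcripts are not replicates, and no test was made of these folds.

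Among single transcripts, the highest densities were those of thymosin, neuronal and metal-binding proteins. Tmsb10-001 had 301 and 494 footprints on 45 codons, a density of 945 ± 353 CPM per coding kb. Nrgn-001 followed at 933 ± 480, Gng3-201 at 888 ± 263, Tmsb4x-001 at 867 ± 289, Cox8a-201 at 756 ± 330 and Mt3-201 at 692 ± 364. Gng3 is a neuronal G protein gamma subunit and Mt3 the brain metallothionein, which binds zinc and copper. These means differed from one another by less than the spread between replicates, and in each transcript replicate 1 was the higher. In raw counts, Tmsb10-001 had 2.23 footprints per coding nt in replicate 1 and 3.66 in replicate 2. At least 1 footprint per coding nt was found on 30 small-protein transcripts in replicate 1 and 104 in replicate 2.

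Among tested transcripts, the shortest coding sequences belonged to the small-protein genes Cox7c, Rpl41 and Gm10076. Cox7c-002, a 25-codon model of a cytochrome c oxidase subunit, had 49 and 115 footprints, a level of 26.3 CPM in replicate 1 (19.4 to 34.7) and 21.9 CPM in replicate 2 (18.04 to 26.2). The 3 small-protein models of Cox7c, with coding sequences of 75 to 192 nt, had 261 and 550 footprints together. Fragments that these models share cannot be told apart, so the count does not show that the 25-codon frame was translated. Rpl41 encodes the smallest ribosomal protein, and its 26-codon models Rpl41-001, Rpl41-002 and Rpl41-003 had 45, 41 and 40 footprints in replicate 1 and 84, 93 and 87 in replicate 2. Gm10076, annotated as a separate gene and also of 26 codons, had 40 and 85, so its counts were within counting error of those of each Rpl41 model. Whether the 2 genes share fragments was not examined, so these counts may not be its own. The intervals of the replicates overlapped in all 5 transcripts, and none was called different between them.

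Models of 1 gene with the same coding length mostly differed less in count than in transcript length, except where the lengths were close. Rpl38-001, Rpl38-002, Rpl38-003 and Rpl38-004, of 371, 364, 457 and 345 nt, had 97, 109, 113 and 104 footprints in replicate 1 and 274, 266, 242 and 260 in replicate 2. Gng2-001, of 3826 nt, had 236 and 522, and Gng2-004, of 393 nt, had 103 and 251. The Gng2 counts thus differed about 2-fold over transcripts that differed almost 10-fold in length. Over 33 such sets in which the longest transcript was at least 2 times the shortest, the median length fold was 3.54 and the median count fold was 1.14, with the longer transcript higher in 24 and lower in 9. Over 32 sets with a length fold under 1.25, the median count fold was 0.991, with quartiles of 0.899 and 1.19. These folds set the longest transcript over the shortest, so higher and lower counts offset each other in a median. Dynll2-202 and Dynll2-001, of 2187 and 2476 nt, had 99 and 228 footprints in replicate 1 and 329 and 488 in replicate 2. Levels of genes are given as sums over their small-protein transcripts.

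Short models were also set against the whole of their genes. The comparison covers 378 of the 519 genes with short models. Over these 378, the small-protein transcripts had a median of 15.2% of the gene's footprints in replicate 1 and 15.4% in replicate 2. These genes had a median of 6 annotated transcripts. The highest single models were those of Nnat (neuronatin), an imprinted membrane protein of developing neurons, and of Ptma (prothymosin alpha), an acidic nuclear protein. Nnat-001 had 268 and 478 footprints, 14.2% and 13.1% of its gene, and Ptma-005 had 230 and 477, which is 21.99% and 22.9%. The shares of the replicates were within 1.2 percentage points of each other in both models.

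The levels of small proteins in the replicates were closely related. Over the 652 that averaged 10 or more counts, log2(CPM + 1) in the replicates had a Pearson correlation of 0.958 and a Spearman correlation of 0.956. This is a correlation across transcripts of 1 pair of libraries. Models of 1 gene share sequence, so transcripts are not independent. For all 43655 tested transcripts the Pearson correlation was 0.947.

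Small-protein transcripts were mostly lower in replicate 2 where the replicates differed. Counts were tested per transcript by a two-sided exact binomial test whose null was the library sizes after TMM scaling (trimmed mean of M values). Transcripts were called at a Benjamini-Hochberg adjusted p under 0.05 over all tested transcripts. The test covers counting noise between 2 libraries and compares no conditions. It called 119 of 652 small-protein transcripts (18.3%): replicate 2 was higher in 2 of them and lower in 117. The share called over all 43655 tested transcripts was 6.15%, with 0.662% higher and 5.48% lower in replicate 2. Without adjustment, 204 small-protein transcripts had a p under 0.05. The median log2 ratio of replicate 2 over replicate 1 was -0.21 for the small-protein transcripts and 0.01 for all.

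The calls lay mainly on small-protein genes, and on transcripts with many counts. Of 345 tested transcripts of small-protein genes 90 were called (26.1%), all lower in replicate 2, with a median log2 ratio of -0.35. Of 307 short models 29 were called (9.45%), 2 higher and 27 lower, with a median of -0.02. The longer coding transcripts had the same median, and 8.61% were called. Above a mean count of 100, 106 of 181 small-protein transcripts (58.6%) were called, against 24.1% of all transcripts. With library totals in place of TMM, which moves log2 ratios up by 0.19 (by less at low counts, through the prior), the median for small proteins was -0.03 and that for all transcripts 0.19. On that scaling 75 small-protein transcripts (11.5%) were called, 3 higher and 72 lower, against 1901 of all 43655 tested transcripts (4.35%). The share of all calls that were higher rose from 10.8% to 39.6%. With all transcripts of each gene summed, 166 of 603 genes with a small-protein transcript (27.5%) were called, 32 higher and 134 lower. Over all tested genes summed in this way, 3037 of 16427 (18.5%) were called, 729 higher and 2308 lower. Among small-protein genes alone, 98 of 225 (43.6%) were called, 4 higher and 94 lower.

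**Figure D3:**
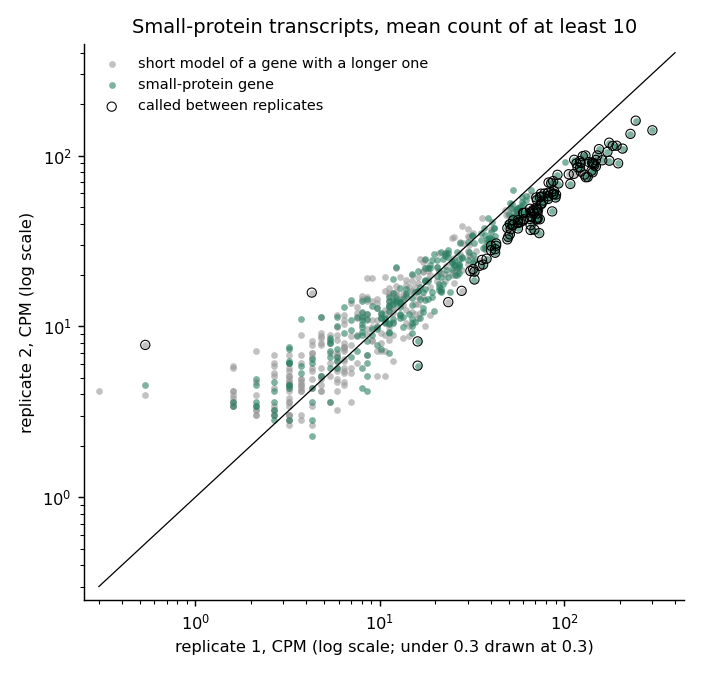
Levels of the 652 tested small-protein transcripts, in CPM by library totals on log axes, replicate 1 across and replicate 2 up; the line marks equal levels and rings mark the 119 called transcripts. The called transcripts lie below the line at high levels, with 2 exceptions at the left.

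The log2 ratio fell with footprint density in small and in longer coding transcripts. At 0.8 footprints per coding nt or more, the median log2 ratio was -0.69 for 91 small-protein transcripts and -0.72 for 216 longer ones, and 73 and 211 of them were called. At 0.4 to 0.8, it was -0.45 for 114 small-protein and -0.47 for 635 longer transcripts. At 0.2 to 0.4 it was -0.09 for 151 and -0.27 for 1486, and at 0.05 to 0.1 it was 0.13 for 118 and -0.04 for 3829. At equal density per nt of transcript from 0.1 upward, small-protein transcripts were the lower. Their median was -0.60 against -0.41 at 0.2 to 0.4 and -0.32 against -0.25 at 0.1 to 0.2. At 0.05 to 0.1 they were the higher, at -0.07 against -0.16, and below 0.05 the medians were 0.005 and 0.054. At equal density a longer transcript has more counts, so the shares called are not comparable between the sets. The part that copies of a fragment play in this fall was not tested.

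**Figure D4:**
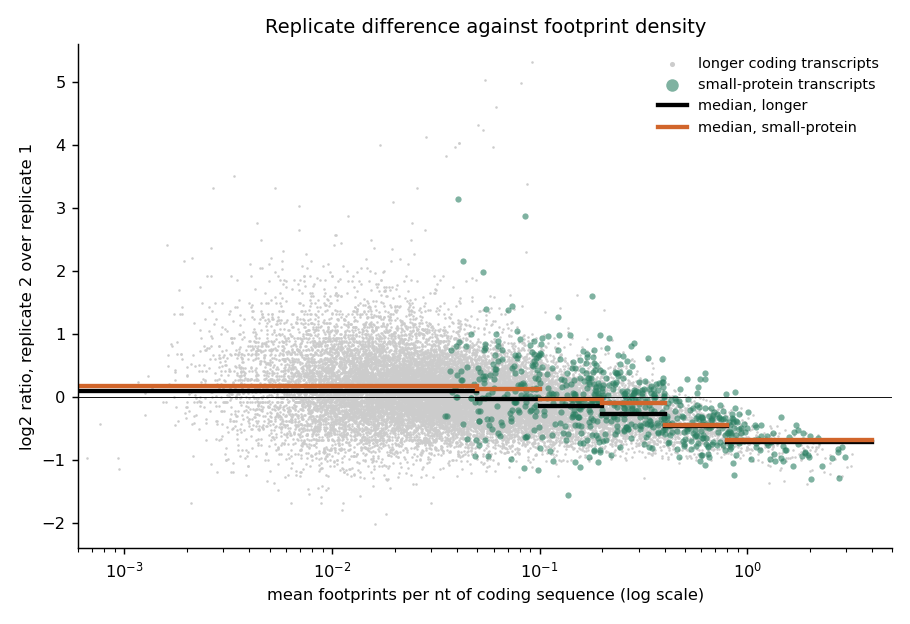
Log2 ratio of replicate 2 over replicate 1 against the mean number of footprints per nt of coding sequence on a log axis, for the tested complete coding transcripts; bars are medians in classes of density. The medians of small-protein and longer transcripts both fall, to -0.69 and -0.72 in the densest class.

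The ratio also moved with the number of transcripts annotated for a gene. Small-protein transcripts of genes with 1 annotated transcript had a median log2 ratio of -0.59, and 45 of 97 were called. The median was -0.29 for 153 transcripts of genes with 2 or 3, -0.14 for 226 with 4 to 6, and -0.02 for 176 with 7 or more. Longer coding transcripts fell in the same order, with medians of -0.35, -0.13, -0.01 and 0.12 in the same classes. In the class with 1 annotated transcript, 797 of 3068 longer coding transcripts were called. The median density of the small-protein transcripts in these 4 classes was 0.567, 0.201, 0.234 and 0.177 footprints per coding nt. Their median count was 123.5, 51.5, 47 and 39, so the class with 1 annotated transcript was also the densest and had the most counts.

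The lowest ratios belonged to a G protein subunit, metallothioneins and neuronal proteins. Gng11-001 had 30 and 31 footprints, which is 16.1 CPM (10.8 to 22.9) and 5.89 CPM (4.00 to 8.36), a log2 ratio of -1.55 (adjusted p = 0.000589, exact binomial test). Mt3-201 had 367 and 474 footprints, or 197 and 90.1 CPM, a log2 ratio of -1.31 (adjusted p = 1.33e-33, exact binomial test). Nrgn-001 had 563 and 740 and a log2 ratio of -1.28 (adjusted p = 2.03e-50, exact binomial test). Mt1-201, the general metallothionein, followed at -1.23 with 137 and 185 footprints, and Apln-001, which encodes the peptide apelin, at -1.11 with 30 and 43. The replicate intervals in CPM overlapped for Apln and for none of the other 4, and Apln lost its call with library totals.

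The 2 transcripts called higher in replicate 2 were short models with few counts in replicate 1. Mobp-002, of a myelin protein gene, had 1 footprint in replicate 1 and 41 in replicate 2, a TMM-scaled ratio of 12.8 with a counting interval of 2.17 to 517 (adjusted p = 0.00895, exact binomial test). Of the oligodendrocyte markers, Mbp was 231 CPM in replicate 1 and 410 in replicate 2, and Mag was 62.1 and 93.9. Olig1 was 171 and 104 CPM and Olig2 87.8 and 49.98, so the myelin genes were higher in replicate 2 and the transcription factors lower. Their part in the Mobp count was not tested. Rps27l-001, of a ribosomal protein paralogue, had 8 and 83 footprints, a ratio of 3.24 with an interval of 1.57 to 7.75 (adjusted p = 0.00795, exact binomial test). Both stayed higher when all transcripts of the gene were summed, at log2 ratios of 1.26 and 0.81.

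Functional groups were described from 15 lists of genes, of which 221 genes had a small-protein transcript. Together they held 58.8% of the small-protein footprints in replicate 1 and 55.7% in replicate 2. Counts and medians below refer to tested transcripts of these genes, beside a median of -0.21 for all small-protein transcripts and 0.01 for all transcripts. Their calls stand beside 18.3% of small-protein transcripts and 6.15% of all transcripts, of which 5.48% were lower and 0.662% higher in replicate 2.

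The 24 small-protein transcripts of cytosolic ribosomal proteins took 0.0708% of the footprints in replicate 1 and 0.0662% in replicate 2. Of 23 tested, 1 was called higher and 2 lower, and 9 had an unadjusted p under 0.05 in the exact binomial test. The median log2 ratio was -0.18. Rpl38 had 423 and 1042 footprints, and Rps28 had 137 and 490. In CPM, Rpl38 was 227 (206 to 249) and 198 (186 to 210), with overlapping intervals. Rps28, a protein of the small subunit, was 73.4 (61.6 to 86.8) and 93.1 (85.1 to 102), again overlapping. The calls were Rps29-001 at -0.69, Rpl38-003 at -0.58 and Rps27l-001, the one higher. None of the 8 tested transcripts of mitochondrial ribosomal proteins was called by the exact binomial test, and 1 had an unadjusted p under 0.05. Their median was -0.18. The highest was Mrpl34, with 71 and 170 footprints.

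The respiratory chain and ATP synthase made up the largest list by footprints. Its 44 small-protein transcripts took 0.235% of replicate 1 and 0.171% of replicate 2, a level of 2347 and 1711 CPM. Of 33 tested, 18 were called lower in replicate 2 and none higher, where 5.48% of all transcripts were called lower. The median log2 ratio was -0.52. Cox8a, a subunit of complex IV, had 388 and 578 footprints, or 208 CPM (188 to 230) and 110 CPM (101 to 119), a log2 ratio of -1.10. Cox6b1, of the same complex, had 360 and 601 footprints and a ratio of -0.94, and Ndufa4, long assigned to complex I and found with complex IV, had 343 and 599 and a ratio of -0.87. Uqcrq, a subunit of complex III, had 327 and 795 footprints and, of the 4 leading genes, the ratio nearest to 0, at -0.40. Atp5e-001 and Atp5k-001, small subunits of the ATP synthase, were both at -0.70. Cox7b2 and Cox8c, isoforms known from testis, had no footprint in either library.

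Proteins of mitochondrial import and assembly followed the same direction with fewer calls. Of 42 tested transcripts 9 were called lower and none higher, with a median of -0.38. Romo1 had 331 and 670 footprints over 4 transcripts, of which 3 were called, at -0.73, -0.71 and -0.66. The small Tim chaperones Timm13 and Timm10 had 169 and 311, and 138 and 301 footprints, with log2 ratios of -0.79 and -0.55. Cox14, an assembly factor of complex IV, had 138 and 223 and a ratio of -0.98. Timm8a2 was at 0 in both libraries.

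Of 17 tested transcripts of the cytoskeletal and motor list 9 were called lower and none higher, with a median of -0.53. Thymosin models made up 6 of these 9. The 3 models of Tmsb10 lay between -0.97 and -0.83, and the 3 of Tmsb4x between -0.87 and -0.65. Dynll1, the paralogue of Dynll2 in the same motors, had 278 and 696 footprints, or 149 CPM (132 to 168) and 132 CPM (123 to 143), with overlapping intervals.

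The gamma subunits, which anchor G proteins to the membrane together with beta subunits, were unequal in level and ratio. Of 25 tested transcripts 8 were called lower and none higher, with a median of -0.39. Gng3 had 457 and 842 footprints, or 245 CPM (223 to 268) and 160 CPM (149 to 171). Gng7, the isoform known from striatum, had 139 and 314 footprints, and Gng12 had 112 and 385. Gng12 was 59.99 CPM (49.4 to 72.2) and 73.2 CPM (66.0 to 80.9), the one of the 4 leading subunits that was not lower in replicate 2. Summed log2 ratios were -0.80 for Gng3, -0.52 for Gng2, -0.50 for Gng7 and 0.10 for Gng12.

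Neuronal regulators of calmodulin and kinases had 4 of 13 tested transcripts called, all lower, and a median of -0.29. Besides Nrgn these were Camk2n1-001 and Camk2n2-001, inhibitors of CaM kinase II, at -1.02 and -1.05, and Pcp4-001, a calmodulin-binding protein, at -0.62. Camk2n1 had 251 and 394 footprints. Pkia, on the same list, had a summed log2 ratio of -0.30. The metallothioneins Mt1, Mt2 and Mt3 were all called lower, Mt2 with 123 and 206 footprints and a ratio of -0.93, as was Atox1-001, a copper chaperone, at -0.82. S100a1, a calcium-binding protein of the same list, had 95 and 269 footprints, or 50.9 and 51.1 CPM. Of the 14 tested transcripts of this list, 4 were called in all.

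All 7 tested transcripts of neuropeptides and secreted peptides were called lower, with a median of -0.84. They came from 3 genes: 5 models of Nnat, and 1 each of Npy and Apln. Npy, the precursor of neuropeptide Y, had 132 and 222 footprints, or 70.7 CPM (59.2 to 83.9) and 42.2 CPM (36.8 to 48.1). Models of 1 gene share sequence and are not separate evidence. Neuronatin stays in the membrane and is not secreted, so its 5 models do not do what the name of the list says.

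The summed level of 6 neuronal marker genes was 4947 CPM in replicate 1 and 3959 in replicate 2, with Tubb3, Stmn2 and Snap25 lower in replicate 2 and Map2, Dcx and Rbfox3 slightly higher. In bulk tissue, fewer cells of a type and less RNA per cell cannot be told apart. Astrocyte markers summed to 1701 and 1716 CPM and microglial markers to 192 and 200. Choroid plexus markers summed to 618 and 322 CPM, of which Ttr was 582 and 277; Folr1 was 24.1 and 34.8, and Aqp1 11.2 and 10.3. Red cell globins summed to 2474 and 1685. Of the liver markers, Alb and Cyp2e1 were at 0 in both libraries and Apoa1 had 1 and 6 footprints. Muscle markers were not absent: they summed to 77.1 and 54.7 CPM, of which Acta1 was 74.99 and 50.17. Myh3 was 0.536 and 3.80 CPM, and Ckm 1.61 and 0.760. The part of these differences in the neuronal and secreted lists was not tested. Smn1, at which the animals were heterozygous, had 71 and 253 footprints, or 38.0 and 48.1 CPM.

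The listed chemokines, apolipoproteins and immune peptides were scarce. Of 26 small-protein transcripts on this list 8 were tested, with a median log2 ratio of 0.36, and 1 was called, lower. That was Cxcl14, a chemokine made by interneurons among other cells, with 134 and 224 footprints, or 71.8 CPM (60.1 to 85.0) and 42.6 CPM (37.2 to 48.5). Cxcl12, a chemokine that guides migrating neurons, had 33 and 152 footprints, or 17.7 CPM (12.2 to 24.8) and 28.9 CPM (24.5 to 33.9). Apoc2, Apoc3, Defb1 and Hcst had no footprint. The apolipoprotein gene Apoe was not on the list. Its 2 short models had 285 and 569 footprints, more than the 212 and 537 of the whole list.

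The ubiquitin-like proteins had 3 of 24 tested transcripts called, all lower, with a median of -0.13. Both models of Nedd8, the modifier of cullin ligases, were among them, with a gene total of 299 and 619 footprints, while Sumo2 had 207 and 593, or 111 and 113 CPM. The Sm and LSm proteins, which form rings on spliceosomal RNAs and are assembled by the SMN complex, had 1 of 11 tested transcripts called, Sf3b5-001, a subunit of the associated SF3b particle, at -0.65, and a median of 0.03. Among the Sm proteins themselves, Snrpe had 64 and 315 footprints, or 34.3 CPM (26.4 to 43.8) and 59.9 CPM (53.4 to 66.9), and Snrpf had 57 and 143, or 30.5 CPM (23.1 to 39.6) and 27.2 CPM (22.9 to 32.0).

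On the list of secretory and membrane proteins, 3 of 19 tested transcripts were called lower, with a median of -0.04. Atp6v0e2, a subunit of the vesicular proton pump, led it with 329 and 491 footprints and a ratio of -1.10, and Serp1 and Serp2, which act at the translocon, were also called. Sec61g, the gamma subunit of the translocon itself, had 90 and 389 footprints over its short models, or 48.2 and 73.9 CPM. Of 28 tested transcripts in transcription, chromatin and cell cycle 3 were called lower, with a median of -0.15. The list's most abundant gene was Gtf2h5, a subunit of TFIIH, with 213 and 509 footprints.

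Small membrane regulators and micropeptides had 4 of 27 tested transcripts called, all lower, with a median of -0.31. Fxyd6 had 428 and 705 footprints and Fxyd7, another sodium pump regulator of the brain, had 202 and 359, with log2 ratios of -0.96 and -0.85. Smim13-001, of a protein of unassigned function, was at -1.02 with 123 and 193 footprints. Fxyd3, Kcne4, Smim23 and Smim6 had no footprint in either library.

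**Figure D5:**
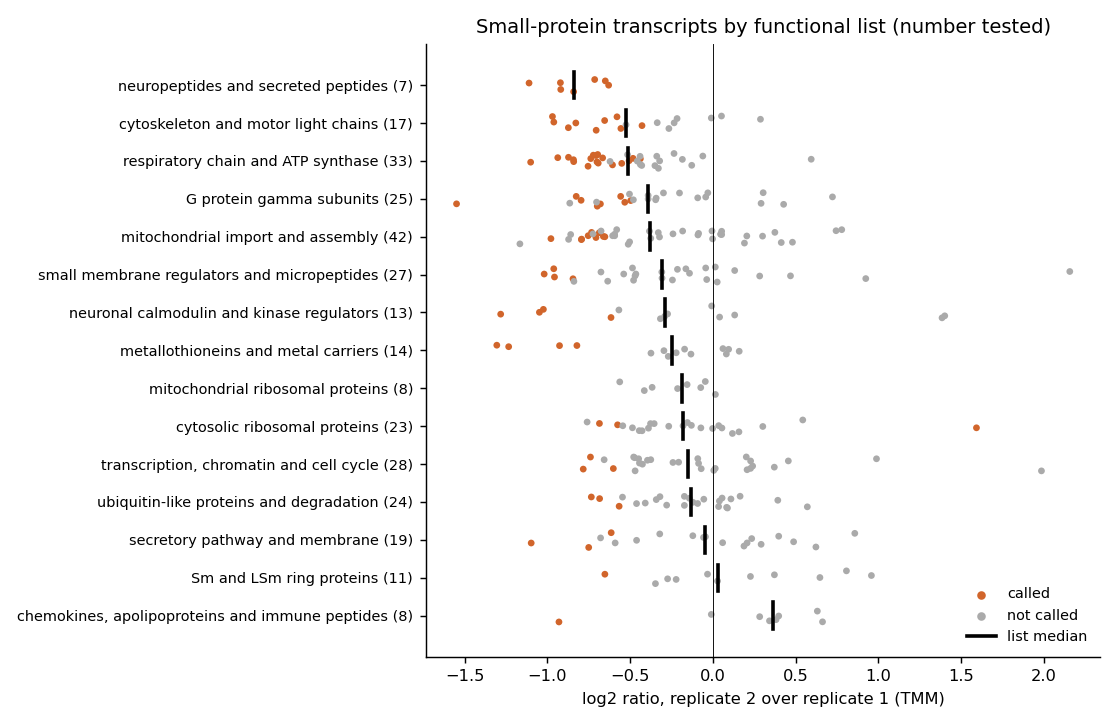
Log2 ratio of replicate 2 over replicate 1 for each tested small-protein transcript, by functional list with the number tested in brackets; points are transcripts, coloured where called by the exact binomial test, and bars are list medians. Medians run from -0.84 for neuropeptides and secreted peptides to 0.36 for chemokines, apolipoproteins and immune peptides, and 1 called transcript lies to the right of 0.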

How the data were processed

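The authors deposited whole-number counts of ribosome footprints per transcript, 1 column per replicate and not normalized, with annotated lengths of transcript, coding sequence and untranslated regions. Per the labels' protocols, pooled polysome fractions were digested with RNase I and 25 to 35 nt fragments were sequenced. Trimmomatic 0.36, Bowtie2 2.2.6, SAMtools and build GRCm38.p4 are named in the submitters' processing notes. The annotation release and the treatment of duplicates, strand and fragments with several matches are not given in the sources used here. Of the count columns, none was left out.

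Members and gene lists were chosen with earlier results of these data known. CPM used library totals. Log2 ratios used TMM sizes from edgeR 4.0.16 and a prior of 0.5 CPM; DESeq2 1.42.0 size factors, library totals, other count minimums and gene sums were alternatives. With 1 group and no contrast, edgeR's quasi-likelihood test had nothing to fit. The exact binomial test (SciPy 1.17.1, Benjamini-Hochberg adjustment, mean count of at least 10) was tested on simulated data. It covers the spread of counting, not that between animals.

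Genes named were the 15 small-protein genes with the highest mean CPM; the 10 densest transcripts; the called transcripts with the 5 highest and 5 lowest ratios at a mean count of at least 20; the 4 leading genes of each list; the 5 shortest and the 5 highest short models; and listed genes at 0. Others, such as called members of lists, families without footprints and models of 1 gene, were chosen after their values were seen. Start windows came from RefSeq on GRCm38.p6, matched by symbol. The summed level of the oligodendrocyte markers is not reported here.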

Additional observations from a re-analysis of the deposited data

How the results depend on the processing

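No paired analysis was possible because the samples form 1 group. Leaving out either replicate kept every share and fold within 1 SD, which 2 replicates give by construction. Pooled densities and gene sums for density were chosen after seeing the data.

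The small proteins' share of the footprints was 2.66% when untranslated regions were not required, 1.47% for all transcripts of the small-protein genes, and 2.33% of footprints on protein-coding transcripts. Transcripts detected in both libraries numbered 933 at a minimum of 1 footprint, 204 at 50, and 936 with untranslated regions not required.

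The median fold per coding nucleotide was 3.92 at a mean count of at least 1 and 1.87 with no minimum. It was 9.47 for small-protein genes alone, 8.73 for the highest transcript per gene and 4.51 for pooled densities. Gene sums, over small-protein genes alone, gave 7.74 at a mean count of at least 10, and 0.301 with no minimum, where the direction turned. Per transcript nucleotide the fold was 1.92 at a mean count of at least 1, 3.76 at 50, 4.72 for small-protein genes alone, 4.04 for the highest transcript per gene and 1.88 pooled. It turned to 0.939 with no minimum; keeping the transcripts at or near 0 is all that this setting changes.

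Transcripts called between replicates numbered 75 with library totals. DESeq2 size factors, lower count minimums, an adjusted p under 0.01 and gene sums gave 93 to 166. Apln-001, Nrep-203, Uqcrq-001 and Dynll1-001 lost their calls with library totals. The median log2 ratio was -0.033 with library totals, -0.14 with a prior of 5 CPM, -0.42 at a mean count of at least 50 and -0.093 for gene sums. The cause was not tested.

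With all transcripts of the listed genes, list shares were 0.101% (cytosolic ribosomal), 0.0307% (mitochondrial ribosomal), 0.332% (respiratory chain), 0.129% (import), 0.0658% (secretory), 0.110% (ubiquitin-like), 0.0279% (Sm and LSm), 0.101% (transcription), 0.163% (cytoskeleton), 0.0924% (neuropeptides), 0.0232% (chemokines) and 0.0912% (micropeptides).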

Other observations

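The 16 keratin-associated proteins among the small-protein genes, structural proteins of hair, had no footprint in replicate 1 and 25 in replicate 2, which is 4.75 CPM in all. Over the group, a count of 0 in replicate 1 allows up to 1.61 CPM. The highest were Krtap8-1 with 6 footprints and Krtap7-1 with 5, and 5 of the 16 were at 0 in both libraries. The family was singled out after its values were seen, and no test was made.

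Among small-protein genes named by number alone (symbols starting with Gm), 40 of 70 had no footprint and 10 had a mean count of at least 10. Gm8797 led them with 289 and 574 footprints. Copies of other genes among them were not identified here.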
